A study of Rattus norvegicus with 12 samples.

Results

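Fos (ENSRNOG00000008015), Fosb (ENSRNOG00000046667), Jun (ENSRNOG00000026293), Junb (ENSRNOG00000042838), Atf3 (ENSRNOG00000003745), Egr1 (ENSRNOG00000019422), Nr4a1 (ENSRNOG00000007607) and Dusp1 (ENSRNOG00000003977) are immediate early genes, and their transcripts were followed in every library of a study of coronary arterioles. The genes were listed by Ensembl ID, and the rule has no threshold on measured values, although the set was proposed with earlier results of these data known. All 8 IDs were among the 24600 gene IDs of the deposited table, and all 8 were among the 12496 genes that passed the filter on low counts. The arterioles came from branches of the left anterior descending artery near the apex of the heart in female Fischer-344 rats, and polyadenylated RNA was sequenced in 12 libraries. Young control libraries (n = 4) came from untreated rats aged 3 months, and old control libraries (n = 4) from untreated rats aged 24 months. Old SVF-treated libraries (n = 4) came from rats labelled 24 months of age, which at 23 months had received 1 tail vein injection of 10000000 adipose-derived stromal vascular fraction (SVF) cells and whose vessels were taken 4 weeks later. RNA was extracted from pools of 5 or more microvessels of the same group. No label gives the number of rats behind a pool, so p-values measure the spread between these RNA samples, which may be partly technical.

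Immediate early genes are switched on within minutes of a stimulus, without new protein synthesis, by transcription factors that already sit in the cell. Growth factors, stretch, calcium entry and cAMP signals act on them through MAP kinases, serum response factor and CREB, and their transcripts also rise while tissue is cut and handled. Most of their messenger RNAs are short-lived, so their levels fall again once the stimulus ends. Fos, Fosb, Jun and Junb encode subunits of the transcription factor AP-1. Atf3 encodes a stress-induced factor of the related ATF/CREB family, Egr1 a zinc finger factor and Nr4a1 an orphan nuclear receptor. Dusp1 encodes a phosphatase that switches MAP kinases off and so acts as a brake on the same response.

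Promoter sequence is shown for Junb, Nr4a1 and Dusp1, whose windows hold letters to which CREB family factors are known to bind. The Egr1 window holds such letters too and is not shown. Whether these letters relate to the levels in these libraries was not tested. RefSeq promoter windows on build GRCr8 matched 5 of the 8 genes, namely Fosb, Junb, Egr1, Nr4a1 and Dusp1. Each sequence below gives the 250 bases before the listed start of transcription, 5′ to 3′ on the strand of the gene, which is the plus strand for all 3. Capitals mark the cAMP response element (CRE) TGACGTCA, its core TGACG on either strand, and the TATA box TATAAA. The windows lie at chr19:40080876-40081125 for Junb, chr7:134259888-134260137 for Nr4a1 and chr10:17184603-17184852 for Dusp1.
Junb: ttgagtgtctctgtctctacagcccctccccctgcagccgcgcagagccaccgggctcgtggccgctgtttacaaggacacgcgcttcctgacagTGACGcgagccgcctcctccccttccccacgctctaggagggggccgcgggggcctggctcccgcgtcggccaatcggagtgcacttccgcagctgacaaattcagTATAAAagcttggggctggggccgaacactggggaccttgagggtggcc
Nr4a1: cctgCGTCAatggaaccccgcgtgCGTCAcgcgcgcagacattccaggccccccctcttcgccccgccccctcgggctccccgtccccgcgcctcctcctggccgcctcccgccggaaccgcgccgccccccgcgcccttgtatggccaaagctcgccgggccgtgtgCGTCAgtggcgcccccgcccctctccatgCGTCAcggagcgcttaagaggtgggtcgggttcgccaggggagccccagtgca
Dusp1: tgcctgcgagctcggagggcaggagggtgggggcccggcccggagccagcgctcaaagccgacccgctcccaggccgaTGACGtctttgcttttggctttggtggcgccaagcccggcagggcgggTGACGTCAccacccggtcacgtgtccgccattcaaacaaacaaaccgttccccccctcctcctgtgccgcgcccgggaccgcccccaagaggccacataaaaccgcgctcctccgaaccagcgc

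The Nr4a1 window held the CRE core 4 times, the Dusp1 window 3 times, the Egr1 window 2 times and the Junb window 1 time. Of the matches in Dusp1, 2 overlap within 1 complete CRE that ends 117 bases before the start. The core was present in 18.2% of the 33469 windows of this length in the table, and the complete CRE in 1.59%. The Egr1 window also held 2 CArG boxes, the element bound by serum response factor, at 105 to 96 and 83 to 74 bases before the start, and 1.5% of all windows held at least 1. The AP-1 site TGANTCA was in 6.34% of all windows and in none of these 5. The Fosb window held none of these elements and 1 TATA box, but its listed start lies 322 bases inside the outer end of the gene, and that of Nr4a1 lies 12985 bases inside. These matches describe letters on both strands and show nothing about binding in these vessels.

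Total counts ranged from 4068021 to 10821485 per library, and the 8 genes together took 0.0964% to 0.504% of them. The lowest share was in young control replicate 2 and the highest in young control replicate 4, which was also the library with the fewest counts. Old SVF-treated replicate 2 and old control replicate 4 agreed least with the rest over all genes (median Spearman rho 0.939 and 0.945). Cell type markers could not be read, because neither the deposited table nor the reference list pairs Ensembl IDs with symbols, so the labelled tissue was not checked and companion genes of the pathway were not counted. In pooled vessels, fewer cells of a type cannot be told apart from less RNA per cell. Levels are given as CPM (counts expressed relative to the size of each library) after TMM normalization, which adjusts totals for a few very abundant genes. They compare libraries within a gene and not genes with each other, since no transcript lengths were used.

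All 8 genes had their highest mean in young controls and their lowest in old SVF-treated rats, with old controls between. The share of all tested genes in this order was not counted. Leaving out 1 library turned a difference for Junb (old against young control) and for Egr1 and Dusp1 (SVF-treated against old control). No gene passed edgeR's test in any comparison, and libraries of the same group differed by up to 86.3-fold for a single gene. The young group held both the library highest for 7 of the 8 genes (replicate 4) and the library lowest for 4 of them (replicate 2).

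**Figure D1:**
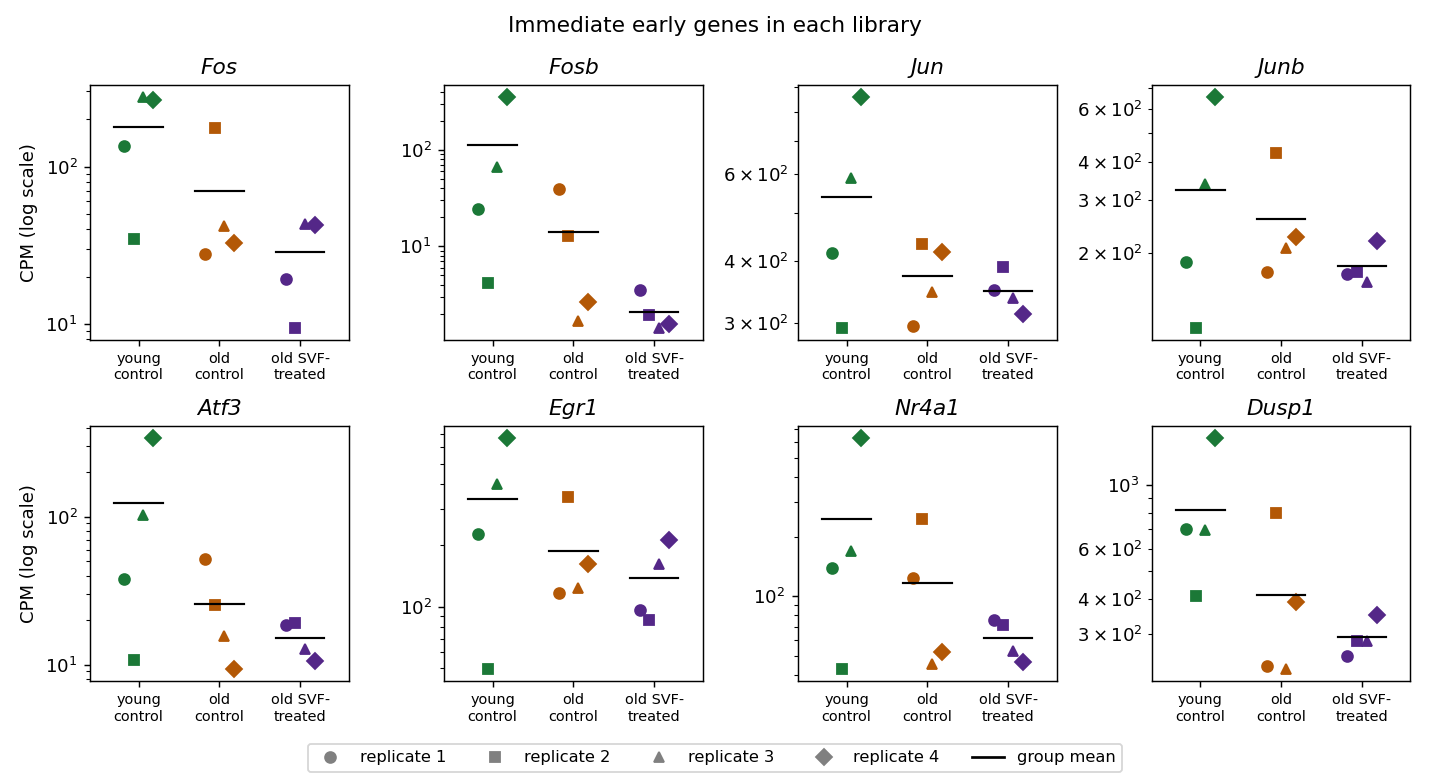
TMM-scaled CPM of each gene (log axes, a different range per panel) in the libraries of the 3 groups (n = 4 each). Points are libraries, with the symbol giving the replicate number, and lines are group means. The means step down from young to old control to SVF-treated in all 8 panels, while young control replicates 2 and 4 lie far apart.

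Fos, the AP-1 subunit that pairs with Jun proteins, was at 134, 34.6, 278 and 264 CPM in young control replicates 1 to 4. It was at 28, 176, 41.8 and 32.6 CPM in the old controls and at 19.3, 9.46, 43.5 and 42.3 CPM in the SVF-treated libraries. The young libraries other than replicate 2 lay above every SVF-treated library, and old control replicate 2 lay above young control replicate 1 while the other old controls lay far below it. Means were 178 ± 115, 69.6 ± 71.2 and 28.6 ± 16.9 CPM (SD, n = 4 each).

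Fosb, a Fos paralog whose spliced products include the long-lived ΔFosB, had the widest range of the set, 252-fold over the 12 libraries. It was at 24.4, 4.14, 66.4 and 357 CPM in young controls, at 39.3, 12.8, 1.68 and 2.66 CPM in old controls, and at 3.48, 1.95, 1.42 and 1.55 CPM in SVF-treated libraries. Every SVF-treated library lay below every young one, although the gap between 3.48 and 4.14 CPM was small. The counts behind these values ran from 10 in SVF-treated replicate 3 to 1394 in young control replicate 4. Old controls spanned both groups, with replicates 1 and 2 in the young range and replicates 3 and 4 in the SVF-treated range.

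Jun, the founding member of its family and a target of JNK, had the narrowest range over the 12 libraries, 2.94-fold. Its young values were 415, 293, 589 and 861 CPM, against 296, 434, 346 and 417 CPM in old controls and 350, 389, 337 and 313 CPM in SVF-treated libraries. The highest 2 libraries were young, and the lowest was young as well. Junb, a paralog that often restrains Jun, was at 186, 113, 338 and 658 CPM in young controls. Old controls had 173, 428, 208 and 225 CPM of Junb, and SVF-treated libraries 170, 173, 160 and 219 CPM. The 3 groups overlapped for both genes, and the SVF-treated libraries were the closest together, within 1.24-fold for Jun and 1.37-fold for Junb.

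Atf3 was at 37.9, 10.7, 102 and 342 CPM in young controls, then at 52.1, 25.2, 15.7 and 9.31 CPM in old controls and at 18.4, 19.1, 12.8 and 10.6 CPM in SVF-treated libraries. The 5 highest libraries were the same for Atf3 and Fosb and in the same order, with old control replicate 1 in the third place, and young control replicate 2 lay within the SVF-treated range. Egr1 was at 226, 49.6, 398 and 669 CPM in young controls, and young control replicates 2 and 4 were the lowest and the highest of all 12 libraries. Old controls had 117, 345, 123 and 162 CPM of Egr1, and SVF-treated libraries 96.6, 86.0, 161 and 211 CPM. For Egr1 the old control and SVF-treated values were interleaved.

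Nr4a1 was at 139, 42.7, 169 and 631 CPM in young controls, at 123, 244, 45.4 and 52.0 CPM in old controls and at 75.4, 71.2, 52.7 and 46.4 CPM in SVF-treated libraries. The SVF-treated libraries lay below 3 young libraries and above young control replicate 2. Dusp1, the phosphatase, was at 700, 410, 698 and 1470 CPM in young controls, and here replicate 2 was less far from the rest. Old controls had 232, 801, 226 and 389 CPM of Dusp1, and SVF-treated libraries 252, 283, 284 and 351 CPM. All 4 SVF-treated libraries lay below all 4 young libraries for Dusp1, and old control replicate 2 was the second highest of the 12.

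The age comparison, old control against young control, gave negative log2 fold changes for 8 of 8 genes, from -0.32 for Junb to -3.0 for Fosb. Over all tested genes 51.3% were negative, and the median was -0.01 against -1.03 over the 8. The 8 genes vary together, so in this and the later comparisons their shared sign is not 8 independent observations. No gene of the set was called by edgeR's quasi-likelihood test (adjusted p 0.885 to 1), where 0.0400% of all tested genes were. At an unadjusted p under 0.05 there were 4 of 8, all lower, beside 2.38% of all tested genes. They were Fosb, Jun, Atf3 and Dusp1. The Fosb difference was 7.98-fold with a 95% interval of -5.95 to -0.04 on the log2 scale, and that of Dusp1 was 1.99-fold with an interval of -1.97 to -0.01. DESeq2 called 0 of the 8 and 0.240% of all tested genes, and 4 of the 8 were under an unadjusted p of 0.05 beside 5.79% of all. With limma voom and sample quality weights the calls were 0 of the 8 and 0.136% of all, and 5 of the 8 beside 8.03% of all were under that unadjusted p. Single libraries moved these values. Without young control replicate 4, the log2 fold change was -1.17 for Fosb, -0.98 for Atf3, -0.54 for Dusp1, -0.20 for Jun, -0.26 for Egr1, -0.01 for Nr4a1 and 0.29 for Junb. Without old control replicate 2 it was -2.38 for Fos, -1.53 for Dusp1, -1.73 for Nr4a1, -1.32 for Egr1 and -0.68 for Junb, and without old control replicate 1 it was -4.33 for Fosb.

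The SVF comparison, old SVF-treated against old control, also gave 8 negative values, from -0.10 for Jun to -2.68 for Fosb, beside 50.5% of all tested genes. The median was -0.63, against 0 over all tested genes. In the edgeR fit over all 12 libraries, none of the 8 was called and none reached an unadjusted p under 0.05 (edgeR adjusted p = 0.999 for each). Of all tested genes, 0% were called and 1.49% were lower at that unadjusted p. The spread in this fit is estimated over all groups, so the young libraries enter it. With only the 2 groups compared, edgeR put Fosb and Junb under that unadjusted p. Without young control replicate 4 it put Fosb alone there. In both of these fits 0 of the 8 were called. DESeq2 and limma voom both called 0 of the 8 and 0% of all genes. DESeq2 put 1 of the 8 and 3.37% of all genes under an unadjusted p of 0.05, and limma voom put 0 of the 8 and 4.62% of all there. The intervals were wide: -3.15 to 0.60 for Fos, -6.02 to 0.66 for Fosb and -1.47 to 0.48 for Dusp1 on the log2 scale. Jun was the narrowest, with -0.58 to 0.37. Without old control replicate 2, the log2 fold changes were -0.26 for Fos, -0.02 for Jun, -0.16 for Junb, -0.26 for Nr4a1, 0.05 for Egr1 and 0.05 for Dusp1. Without old control replicate 1 they were -1.34 for Fosb and -0.13 for Atf3.

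Old SVF-treated rats differ from young controls in both age and treatment, and this comparison shares its libraries with the other comparisons. All 8 log2 fold changes were negative again, from -0.63 for Jun to -5.67 for Fosb, beside 50.8% of all tested genes. The median was -1.74 against -0.01 over all tested genes. edgeR called 0 of the 8 (adjusted p 0.469 to 0.792) and 0.0640% of all tested genes. An unadjusted p under 0.05 was reached by 6 of 8, all lower, beside 3.51% of all tested genes, and Junb and Egr1 did not reach it. Libraries of the groups did not overlap for Fosb and Dusp1, with every SVF-treated library lower, which held for 2.22% of all tested genes.

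Dusp1 was 2.80-fold lower in SVF-treated than in young libraries (log2 -1.48, SE 0.45, 95% interval -2.48 to -0.49, edgeR adjusted p = 0.515). Fos was 6.21-fold lower (log2 -2.63, 95% interval -4.57 to -0.70, edgeR adjusted p = 0.570) and Atf3 8.03-fold lower (log2 -3.01, 95% interval -5.20 to -0.81, edgeR adjusted p = 0.558). Fosb stood at -5.67 on the log2 scale (95% interval -9.18 to -2.17, SE 1.56, edgeR adjusted p = 0.469). Fosb was the single gene of the set that another tool called, at a DESeq2 adjusted p of 0.00105 and a log2 fold change of -5.74, where DESeq2 called 0.456% of all tested genes. By limma voom 0 of the 8 and 0.264% of all genes were called. Unadjusted p-values under 0.05 were given to 6 of the 8 and 7.71% of all genes by DESeq2, and to 5 of the 8 and 9.44% of all by limma voom. Without young control replicate 4 the values were -3.88 for Fosb, -1.73 for Atf3, -0.93 for Nr4a1, -0.70 for Egr1, -0.31 for Jun and -0.23 for Junb.

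**Figure D2:**
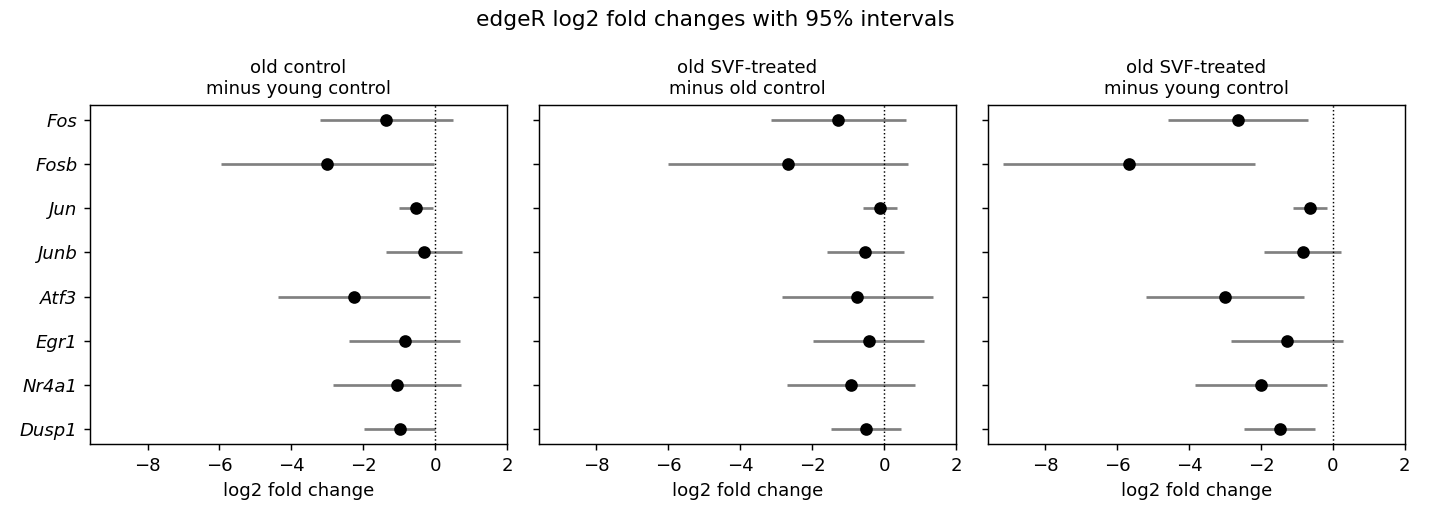
edgeR log2 fold changes of the 8 genes (points) with 95% intervals (lines) in the 3 comparisons, on a shared axis. All 24 points lie below 0, and the widest interval, for Fosb in SVF-treated against young libraries, runs from -9.18 to -2.17.

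The spread between libraries of a group was larger for most of these genes than for the typical gene. The SD of log2 CPM within groups had a median of 1.11 over the 8 genes and 0.41 over all tested genes. It was 1.94 for Fosb, above 99.5% of tested genes, 1.38 for Atf3 and 1.22 for Fos. Junb and Dusp1 had 0.72 and 0.67, and Jun had 0.42, close to the typical gene. At the abundance of these genes, edgeR's trend gave a biological coefficient of variation of 18.1% to 22.8%, while their own values ran from 23.4% for Jun to 112% for Fosb. The trend lay below the median over all tested genes, 27.7%. By this measure Jun lay above 37.7% of tested genes, Dusp1 above 70.9% and Fosb above 93.8%.

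Within the groups, the SD was smallest in SVF-treated libraries for 8 of 8 genes, as it was for 31.7% of all tested genes, and largest in young libraries for 7 of 8, as for 29.0% of all tested genes. The exception was Dusp1, with an SD of 0.75 in young and 0.86 in old controls. The median SD over the 8 genes was 1.49 among young, 0.95 among old control and 0.37 among SVF-treated libraries, while over all tested genes it was 0.35, 0.37 and 0.38. The genes vary together, so 8 genes are not 8 independent observations of this order. A permutation test over all 34650 groupings, chosen after the values were seen, compared the deviations from the group medians for each gene. Its p-values are approximate, because the deviations were taken from the medians of the same groups before permuting. The unadjusted p was lowest for Jun (0.0232), and no gene passed after adjustment over the 8 (adjusted p 0.179 to 0.866).

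The genes rose and fell together from library to library. Each of the 28 pairs had a positive correlation of log2 CPM over the 12 libraries, with Pearson r from 0.67 to 0.95 (permutation test with 100000 resamples, 2-sided, adjusted p 0.00042 to 0.0155). By Spearman's rho the range was 0.34 to 0.87, and 10 of 28 pairs passed. Much of the linear relation rested on few libraries. Leaving out the 2 libraries farthest from the median of the first gene, in most pairs young control replicates 3 and 4, gave r from 0.09 to 0.88, and 6 pairs passed. Without young control replicate 4 alone, 8 pairs passed. With group means removed, r was 0.47 to 0.95 and 11 pairs passed.

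Of the 28 pairs, 5 passed under all of these treatments. Fosb and Atf3 had the highest r, 0.95 (rho 0.81, permutation adjusted p = 0.00042 and 0.0139), with r = 0.87 without the 2 farthest libraries. Junb and Egr1 had r = 0.92 (rho 0.86, permutation adjusted p = 0.00042 and 0.00728), with r = 0.87 without the 2 farthest. The other pairs were Fosb with Nr4a1 (r = 0.91, rho 0.74), Atf3 with Nr4a1 (r = 0.90, rho 0.86) and Fos with Dusp1 (r = 0.86, rho 0.73). The permutation adjusted p of these 3 was at most 0.00188 for r and 0.0269 for rho. Fos and Fosb, close paralogs, were less alike, with r = 0.73 and rho = 0.41 (permutation adjusted p = 0.00890 and 0.199), and r = 0.45 without the 2 farthest libraries.

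**Figure D3:**
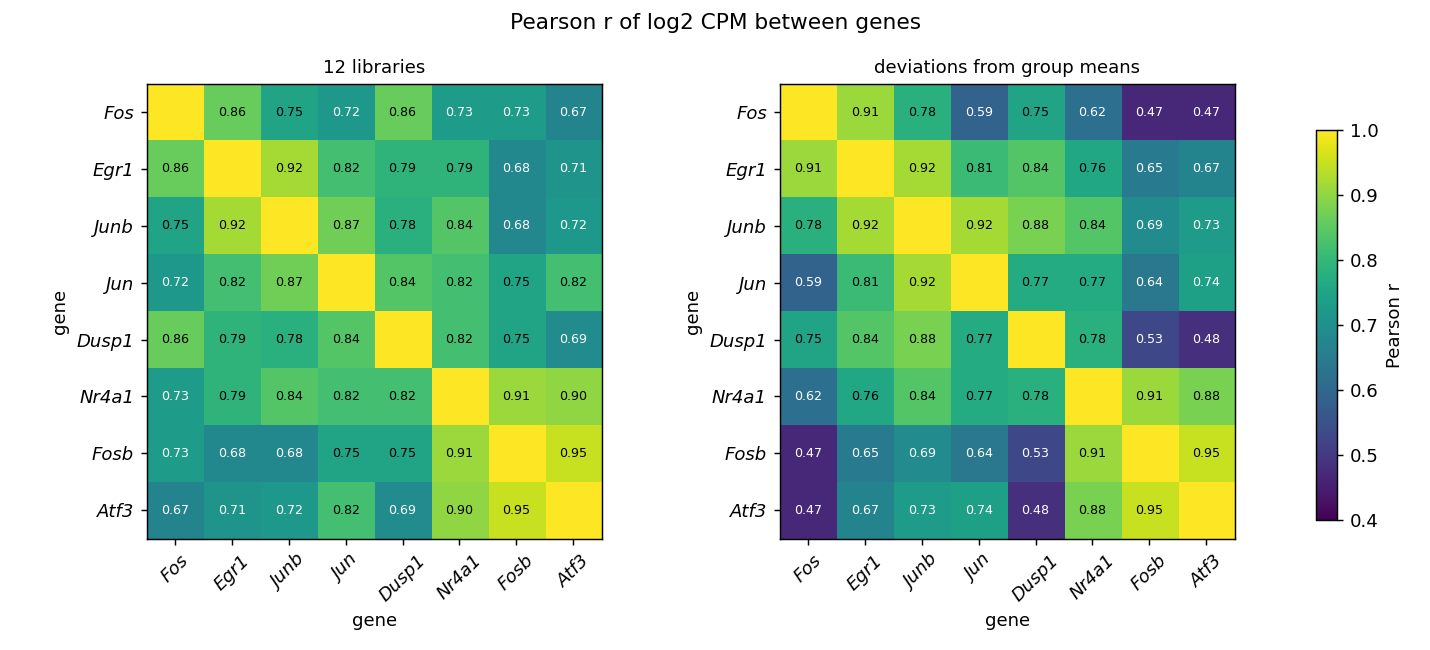
Pearson r of log2 CPM between genes over the 12 libraries (left) and after subtraction of each group's mean (right). Nr4a1, Fosb and Atf3 form a block of 0.88 to 0.95 in both panels, and the lowest value at right is 0.47, for Fos with Fosb and with Atf3.

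A pair of old control libraries shows how the genes differed. Old control replicate 1 ranked 3rd of 12 for Fosb and Atf3 and 5th for Nr4a1, yet 10th for Fos, 11th for Dusp1 and Jun and 9th for Egr1. Old control replicate 2 ranked 2nd for Dusp1, Junb and Nr4a1 and 3rd for Fos, Egr1 and Jun, but 5th for Fosb and Atf3. Young control replicate 2 was likewise uneven, ranking 12th for Jun, Junb, Egr1 and Nr4a1 but 5th for Dusp1 and 6th for Fosb. By correlation Fosb, Atf3 and Nr4a1 were close (r = 0.90 to 0.95), but in these libraries Nr4a1 did not always rank with the other genes of that block. It ranked 2nd in old control replicate 2, as Dusp1 and Junb did. In young control replicate 2 it ranked 12th, as Jun, Junb and Egr1 did. The block was read from these same correlations and was not tested.

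**Figure D4:**
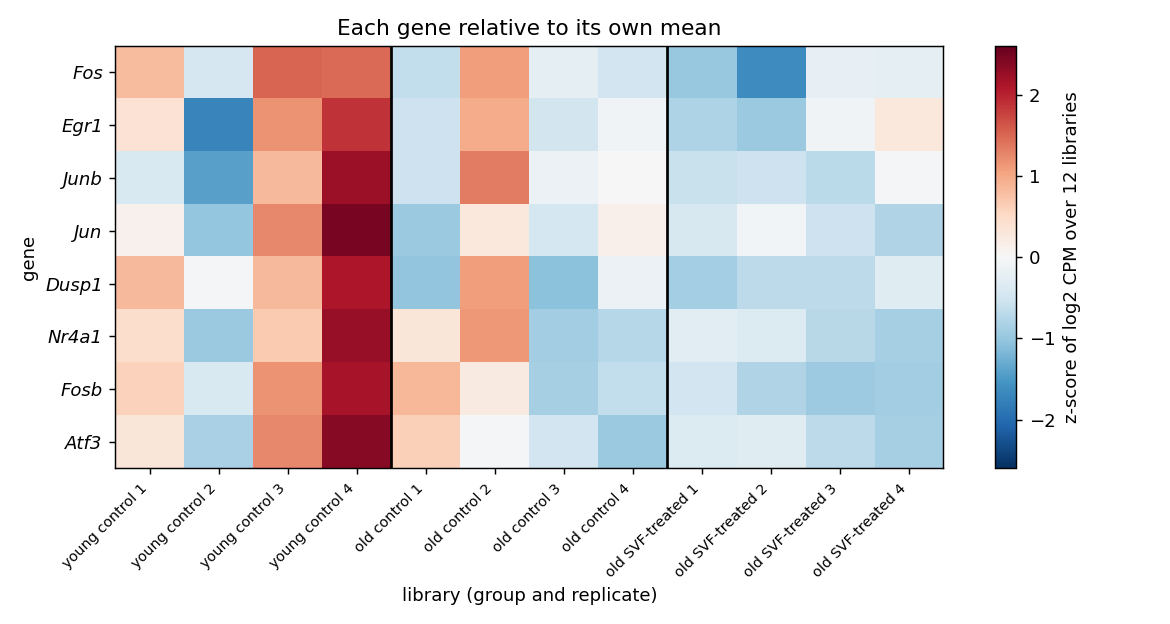
Log2 CPM of each gene as a z-score over the 12 libraries (colour), with black lines between the groups. Young control replicates 3 and 4 are high in all rows, old control replicate 2 is well above the mean in most rows but near it for Jun, Fosb and Atf3, and old control replicate 1 is above the mean only for Nr4a1, Fosb and Atf3.

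Set against every tested gene, each of the 8 ranked among the 11 most like the mean of the other 7, with r from 0.83 for Fos to 0.92 for Nr4a1 over 12 libraries. Fosb was the closest of 12495 genes to Atf3, and Atf3 the closest to Fosb. Egr1 ranked 2nd for Junb, Junb ranked 2nd for Egr1, and Dusp1 ranked 2nd for Fos. Other pairs ranked far lower, down to Junb at place 149 for Fosb and Atf3 at place 158 for Fos. Of the 12488 tested genes outside the set, 4 had r above 0.9 with the mean of the 8 and 11 had r above 0.8. Those IDs could not be paired with symbols and are not named. These ranks describe the same 12 libraries, in which young control replicate 4 carries much of the variation.

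Library depth and dropout were set beside the genes. Over 12 libraries, Pearson r between log2 CPM and the log2 total count ran from -0.58 for Dusp1 to -0.29 for Egr1, and with the number of tested genes at 0 from -0.23 for Fosb to 0.19 for Dusp1. None of these 16 relations passed a permutation test after adjustment (smallest adjusted p = 0.363, smallest unadjusted p = 0.0484 for Dusp1 with the total). By Spearman's rho the smallest adjusted p was 0.864 (permutation test). For Dusp1 with the total, rho was -0.42 and r was -0.04 without the 2 libraries of most extreme total. The least deeply sequenced library, young control replicate 4, had 1336 reads of Atf3, 1394 of Fosb and 2463 of Nr4a1, more than any other library. For the remaining genes another library had more reads: 2871 against 2568 for Junb, 2969 against 2611 for Egr1 and 4400 against 3361 for Jun. It was 5930 against 5721 for Dusp1 and 2079 against 1030 for Fos. The cause of the high CPM values of this library was not tested.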

How the data were processed

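The values are raw read counts by Ensembl gene, deposited by the authors as a table with a column for each library. FastQC 0.10.1, build rn6 and HTSeq 0.10.0 are named in the submitters' processing notes. Which aligner, annotation release and strand setting were used is not given in the sources used here, and overlapping or antisense genes may share reads. The members and lists were chosen with earlier results of these data known. Symbols of the 8 genes come from the definition of the set. All 8 genes are named, and companion genes, marker lists and the closest genes outside the set were to be named only where an ID could be paired with a symbol, which was possible for none.

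The main tests were run in edgeR 4.0.16 (R 4.3.3): filterByExpr (minimum count 10, total 15), TMM, 1 model with group as the term over 12 libraries, robust quasi-likelihood F tests, and Benjamini-Hochberg adjustment over 12496 genes, called under 0.05. Log2 CPM used a prior count of 2. Correlations used NumPy 2.4.6 and 100000 resamples. Alternatives used DESeq2 1.42.0 and limma 3.58.1. The tests were checked on simulated data.

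Replicate numbers are shared across groups, but no label says that they pair libraries.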

Additional observations from a re-analysis of the deposited data

Results flagged for a closer look

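Fos in old control replicate 2 stood apart from its group, at 176 CPM while 41.8 CPM was the next highest and 28 CPM the lowest of that group. Its distance from the next library made up 0.907 of the range, more than the 0.829 that Dixon's test allows for 4 values at the 95% level. Of 24 groups of values examined, this was the 1 past the limit, and chance flags about 1 in 20. In the same library Dusp1 was at 801, Egr1 at 345, Junb at 428 and Nr4a1 at 244 CPM, each the highest old control value.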

How the results depend on the processing

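The count of genes of the set called was 0 in each comparison and stayed 0 under every alternative run, except that DESeq2 called 1 (Fosb) in old SVF-treated against young control. The 8 old libraries pooled against young control, and 2 pairs of libraries left out together, were added after seeing the data; pooled, edgeR called 0 of the 8 (smallest adjusted p = 0.380) and 13 of all tested genes. Of the settings tried for single log2 fold changes, 540 kept direction and call, 1 gained a call and 3 turned, each on leaving out 1 library: Junb in old against young control (-0.68 to 0.29), and Egr1 (-0.70 to 0.05) and Dusp1 (-0.70 to 0.05) in SVF-treated against old control. Some of these settings could hardly move a value. A threshold of 0.1 reused the same fit, and a left-out library from outside the comparison changed little. The pairs of genes with correlated levels numbered 28, but 11 with group means removed, 10 by Spearman's rho and 8 to 28 on leaving out 1 library, with 8 without young control replicate 4. The median spread within groups was 0.82 to 1.18 on leaving out 1 library. The causes of these shifts were not tested.

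With the replicate block, 0 of the 8 were called in any comparison, and all genes called numbered 7, 0 and 2, against 5, 0 and 8 without it, for old against young control, SVF-treated against old control and SVF-treated against young control. Same-numbered libraries of different groups had correlations of deviations from group means of -0.01 to 0.09 (median 0.02). Libraries with other numbers had -0.11 to 0.1 (median -0.01). No pair of either kind was above 0.1, and no label pairs the libraries. For 8 of 12 libraries the highest mean correlation fell on their own number, among correlations that were all small. Whether this count exceeds chance was not tested. For all tested genes, old against young control gave 30 calls by DESeq2, 17 by limma voom, 8 at a threshold of 0.1 and 0 to 12 on leaving out 1 library. SVF-treated against young control gave 57, 33, 25 and 0 to 22, with 15 without a filter and 3 with only the groups compared. The lowest count of any of the 8 genes was 10, for Fosb, where counting error is widest.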
